A study of Mus musculus with 5 samples.

Results

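Solute carriers are the genes with symbols of the Slc nomenclature, which groups secondary transporters and facilitated carriers by sequence family. They were taken here as the genes whose array symbol begins with Slc and a family number. The mitochondrial Slc25 family, the hexose carriers of Slc2a, and Slc19a1, Slc46a1, Slc4a1, Slc40a1, Slc11a2, Slc22a3, Slc22a18 and Slc38a4 were left out. These criteria, which use no measured value, gave 214 of the 12393 genes on the array that had a probe set with a single gene symbol. Messenger RNA was profiled in C57BL6J whole embryos at embryonic day 9.5, with 3 Folr1+/+ arrays (Folr1 WT, called wild type below) and 2 Folr1-/- arrays (Folr1 KO, called knockout). Folr1 encodes folate receptor alpha, which brings folate into cells by endocytosis. The decidual capsule, chorion and amnion had been removed, and the labels do not mention the yolk sac. The Folr1-/- embryos came from Folr1+/- dams and sires, the dams being on a folate-supplemented diet before and during gestation, while the labels do not give the diet of the Folr1+/+ embryos' dams separately, and any effect of diet cannot be told apart from that of genotype. The labels call the arrays biological replicates but do not say whether 1 embryo or several went into an array, so p-values measure only the spread between these arrays. Whole embryos were used, and fewer cells of a type cannot be told apart from less RNA per cell.

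Solute carriers move amino acids, sugars, organic acids, vitamins, ions and metals across the plasma membrane and the membranes of organelles, mostly by coupling one substrate's gradient to the movement of another. Before the placental circulation is established, the mouse embryo depends on the visceral yolk sac, whose endoderm takes up maternal protein, digests it in lysosomes and passes amino acids and metals on, and epithelial transport there uses separate sets of carriers on the apical and basolateral faces. Many amino acid exchangers of the Slc7 family work only as a pair with a glycoprotein chain of the Slc3 family, which brings them to the membrane.

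The arrays of a genotype correlated at 0.971 to 0.982 over the tested genes, against 0.926 to 0.949 across genotypes. Markers of other tissues moved between the same arrays. Of the 15 visceral endoderm and yolk sac markers on the array all 15 were higher in Folr1-/- by limma, with summed signals of 3214 to 4315 in the Folr1+/+ arrays and 19572 and 20048 in the Folr1-/- arrays. Primitive erythroid markers summed to 5279 to 6207 and to 179.9 and 593, and 5 of 6 tested were lower. All 6 tested neural progenitor markers and 5 of 7 cardiac markers were lower, with neural sums of 1029 to 1115 and of 234 and 294. Over all tested genes, 8.19% were higher and 6.79% lower. Hba-x, Alas2, Klf1, Pax6, Zic1, Hes5 and Nppa read under 30.0, the filter level for dim genes, in both knockout arrays. They were tested because of their wild-type signals and could only be called lower. The 4 trophoblast and decidua markers on the array summed to 133 to 143 and to 440.3 and 334. Of these, 2 were tested and higher, 1 of them only because its knockout signals brought it past the filter, and the other 2 were dim in both groups. Macrophage and leukocyte markers gave 0 calls among 2 tested (unadjusted p under 0.05 in 1), with sums of 110.5 to 142 and of 136 and 145, and no marker of any list was at 0. Xist also differed, from 25.0 to 35.7 in Folr1+/+ to 419 and 770.4 in Folr1-/-. The Folr1 probe set read alike in both groups (40.2 to 57.0 and 41.8 to 50.2) and does not check the genotype, because the sources used here do not say which part of the gene the allele lacks. The part of these differences in the solute carrier results was not tested.

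The solute carrier genes past the threshold were mostly higher in Folr1-/-. Of the 214 members 97 were bright enough to be tested and 117 lay under the filter on dim genes, and of the tested members 15 rose, 2 fell and 80 did not pass (limma on log2(signal + 16), Benjamini-Hochberg adjusted p under 0.05 over all 7436 genes tested). These 17 calls are 17.5% of the tested members, and the same threshold called 15.0% of all tested genes. By direction, 15.5% of the tested members rose against a background of 8.19%, and 2.06% fell against 6.79%. The median log2 fold change, given throughout as Folr1-/- minus Folr1+/+, was 0.10 over the tested members and -0.02 over all tested genes. The fold change was above 0 in 59 members (60.8%, against 47.9% of all tested genes), and the 2 groups of arrays did not overlap in 51 members (52.6%, against 46.7%). With each array centred on its median, 69.3% in place of 54.7% of all called genes were higher, and 17 of 19 called members (89.5%) in place of 15 of 17 (88.2%). The count of higher members was 9 without wild-type replicate 3, 9 without knockout replicate 1 and 8 without knockout replicate 2, and that of lower members 1, 0 and 1. Without wild-type replicates 1 or 2, 15 members were higher and 2 lower.

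**Figure D1:**
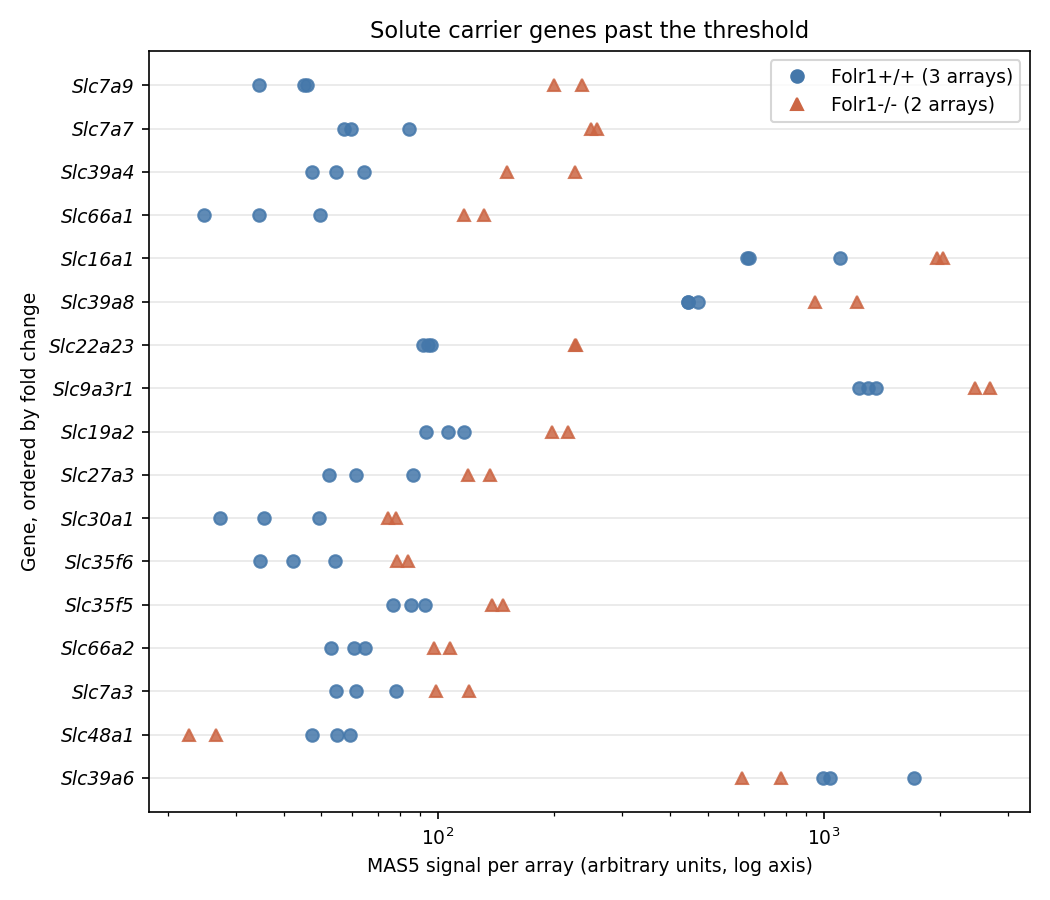
MAS5 signal (arbitrary units, log axis) of the 17 solute carrier genes past the threshold, ordered by fold change, with a circle for each of the 3 Folr1+/+ arrays and a triangle for each of the 2 Folr1-/- arrays. All knockout points lie outside the wild-type range, and Slc48a1 and Slc39a6 are the only genes shown with the Folr1-/- arrays on the left.

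The calls were spread over 9 of the 14 groups into which the families had been sorted by substrate, and 7 of the 17 had a log2 fold change of at least 1. Those 7 were the amino acid exchangers Slc7a9 and Slc7a7, the metal carriers Slc39a4 and Slc39a8, the lysosomal carrier Slc66a1, the monocarboxylate carrier Slc16a1 and Slc22a23. All 7 rose. Among the 17 genes, 7 had further probe sets, 9 in all, of which 7 had the sign of the probe set tested and 2 the other. The 2 exceptions were a probe set of Slc19a2 with signals of 0.867 to 7.0 on the 5 arrays and a probe set of Slc66a2 with a difference of -0.0034.

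**Figure D2:**
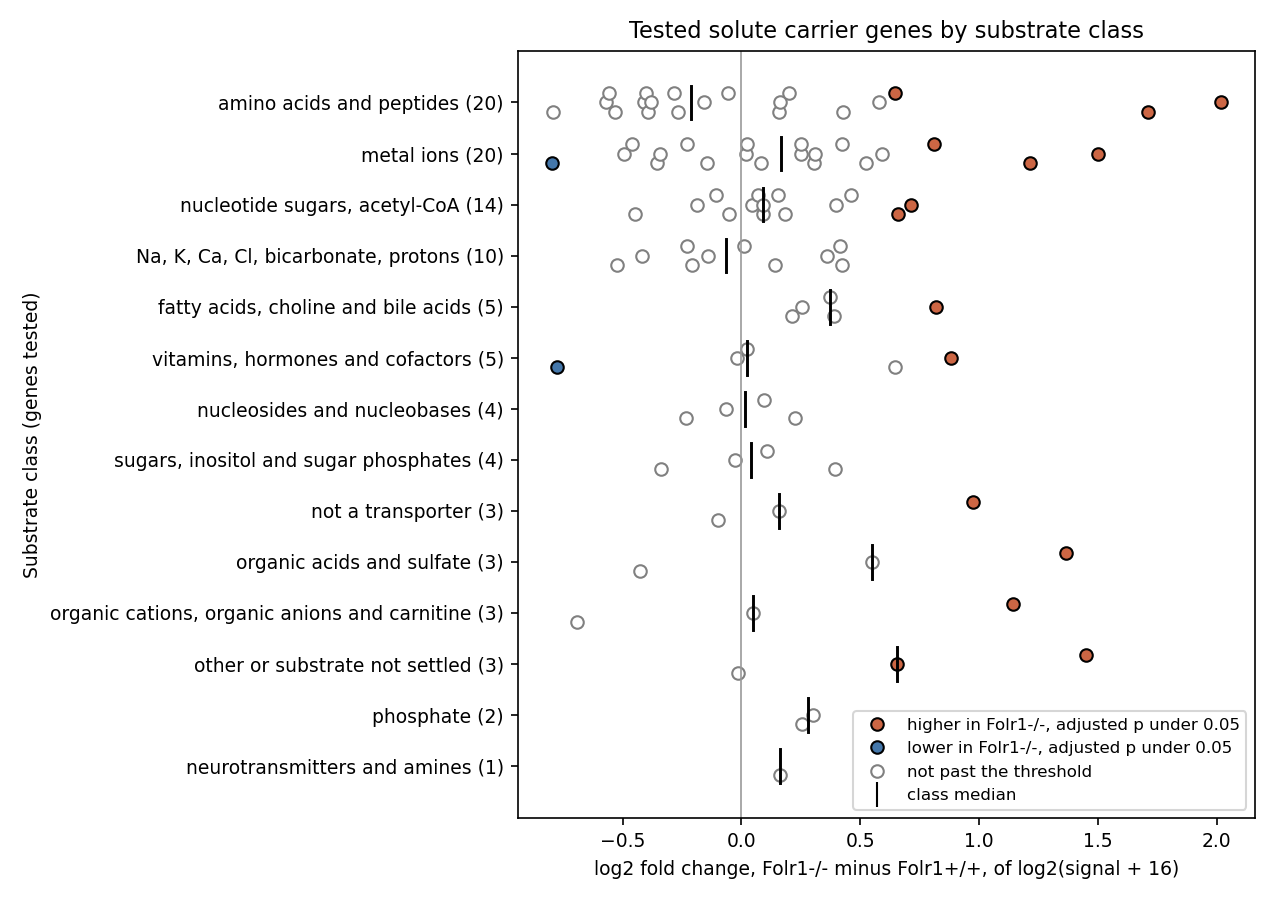
Log2 fold change (Folr1-/- minus Folr1+/+, of log2(signal + 16)) of the 97 tested genes by substrate class, with the number tested in parentheses, filled circles for genes past the threshold and a vertical bar at the class median. The amino acid class holds both the gene with the highest fold change, Slc7a9 at 2.02, and a median below 0, at -0.21.

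Promoter sequence is shown for the 4 genes with the largest fold changes among those with an entry in the RefSeq promoter table (GRCm38.p6), because all 4 rose together in the knockout arrays. The table held 170 of the 214 members and 12 of the 17 called ones. Each sequence covers the 250 bases before the furthest upstream start listed, 5′ to 3′ on the gene's strand, with matches to the searched motifs in capitals. The motifs were AGATAA of GATA factors, CAAAGTC of HNF4 and TGATGCA of ATF4, searched on both strands, and no match overlapped another. They occurred in 9.99%, 3.84% and 2.68% of the 32851 windows of this length in the table, and in 4, 1 and 1 of the 19 windows of called members. These 19 windows are starts of 12 genes, with 5 for Slc7a7 and 2 for Slc7a9. They are therefore not independent, and the counts do not show an excess. Slc7a9 (chr7:35448842-35449091, plus strand) held 2 matches to the GATA motif, and Slc7a7 (chr14:54417945-54418194, minus strand) held 1 to the HNF4 motif, on the reverse strand of the gene. Slc66a1 (chr4:139310709-139310958, minus strand) and Slc16a1 (chr3:104638414-104638663, plus strand) held none. A match is a description of the window and not a binding site shown to be used.
Slc7a9: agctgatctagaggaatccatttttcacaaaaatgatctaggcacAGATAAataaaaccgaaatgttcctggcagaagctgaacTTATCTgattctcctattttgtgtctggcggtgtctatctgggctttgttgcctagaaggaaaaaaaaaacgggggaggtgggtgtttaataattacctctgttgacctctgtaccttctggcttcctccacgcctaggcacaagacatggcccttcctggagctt
Slc7a7: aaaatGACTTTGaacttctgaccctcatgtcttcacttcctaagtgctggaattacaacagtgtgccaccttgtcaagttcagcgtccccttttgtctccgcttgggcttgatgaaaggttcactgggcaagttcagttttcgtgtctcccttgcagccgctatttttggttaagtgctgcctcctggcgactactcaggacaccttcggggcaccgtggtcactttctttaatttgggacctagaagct
Slc66a1: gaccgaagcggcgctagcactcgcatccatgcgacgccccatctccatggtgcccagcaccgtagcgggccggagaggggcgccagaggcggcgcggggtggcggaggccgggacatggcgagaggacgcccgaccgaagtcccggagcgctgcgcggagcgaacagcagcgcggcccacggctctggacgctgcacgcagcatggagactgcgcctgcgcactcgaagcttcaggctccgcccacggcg
Slc16a1: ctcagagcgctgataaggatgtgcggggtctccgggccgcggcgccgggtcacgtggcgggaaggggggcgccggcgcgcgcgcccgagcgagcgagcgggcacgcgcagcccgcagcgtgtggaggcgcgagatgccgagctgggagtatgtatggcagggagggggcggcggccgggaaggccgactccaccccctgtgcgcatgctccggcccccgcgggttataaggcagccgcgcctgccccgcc

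Among amino acid carriers, those that passed were 3 carriers of cationic amino acids, and all rose. Of 42 amino acid and peptide carriers 20 were tested, and 3 rose, 0 fell and 17 did not pass, where 15.0% of all genes were called. At an unadjusted limma p under 0.05, 5 members lay above 0 and 5 below it. The median was -0.21, with 8 fold changes above 0 and 12 below, against 47.9% above 0 over all tested genes. The groups did not overlap in 12 of the 20, against 46.7% of all tested genes. Slc7a9, the light chain of the apical exchanger that takes up cystine and cationic amino acids in kidney and gut, read 34.5, 46.0 and 45.0 in wild-type replicates 1 to 3 and 199.8 and 237 in knockout replicates 1 and 2 (MAS5 signal, the order used for every gene below). Each Folr1-/- array was thus far above all Folr1+/+ arrays, and the log2 fold change was 2.02 ± 0.19 (SE, adjusted p = 4.6e-05). Slc7a7, the light chain of the basolateral exchanger that releases cationic amino acids from epithelial cells, read 84.4, 59.6 and 57.3 in the wild type and 258 and 249 in the knockout (1.71 ± 0.19, adjusted p = 0.00015). Wild-type replicate 1 was the highest of its group, and both Folr1-/- arrays lay far above it. Slc7a6, of the same Slc7 family and named after its values were seen, did not rise. It had 469, 484 and 421 against 433 and 443 (-0.06 ± 0.15, adjusted p = 0.82), and its further probe set differed by -0.25 without overlap. Slc7a1 and Slc7a2 of this family lay under the filter. Slc7a3, a cationic amino acid transporter of the plasma membrane encoded on the X chromosome, read 54.6, 77.8 and 61.5 in the wild type and 120.5 and 99.3 in the knockout (0.65 ± 0.20, adjusted p = 0.046). Its call was lost without wild-type replicate 1 (0.56, adjusted p = 0.10) or 3 (0.62, 0.13) and without knockout replicate 1 (0.53, 0.31) or 2 (0.77, 0.11), with no filter (adjusted p = 0.11) and with quantile normalization (0.062).

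The glycoprotein partners of these exchangers did not pass, and were singled out after their values were seen. Slc3a2, the chain that pairs with Slc7a7, read 269, 175 and 234 in the wild type and 318 and 364 in the knockout, with no overlap between the groups but an adjusted p of 0.061 (0.58 ± 0.19). Slc3a1, the chain that pairs with Slc7a9, was too dim to be tested, at 20.8, 31.8 and 23.2 against 16.1 and 8.11. The higher signals of Slc7a9 in the Folr1-/- arrays were therefore accompanied by low and not by higher signals of its partner's probe set. Slc7a8, another light chain that pairs with Slc3a2 and carries neutral amino acids, also lay under the filter, with 18.1, 16.6 and 15.3 against 65.2 and 51.2. Tested without the filter it rose, by 1.18 ± 0.21 (adjusted p = 0.017). Slc7a5, the light chain that pairs with Slc3a2 in proliferating cells and, like Slc7a8 and Slc15a2, chosen after its values were seen, had 179.7, 143 and 184 against 107 and 139 (-0.41 ± 0.19, adjusted p = 0.16). Slc38a2, a sodium-coupled importer of neutral amino acids, had 1925, 1007 and 1459 against 990.0 and 1148, and the groups overlapped (-0.40 ± 0.22, adjusted p = 0.25). Without wild-type replicate 2, the lowest of its group, Slc38a2 passed at -0.64 (adjusted p = 0.031). The lowest fold change of the class was that of the peptide carrier Slc15a2 (94.0, 76.6 and 88.0 against 23.5 and 71.7, -0.79 ± 0.29, adjusted p = 0.084), for which only knockout replicate 1 was far from the others.

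**Figure D3:**
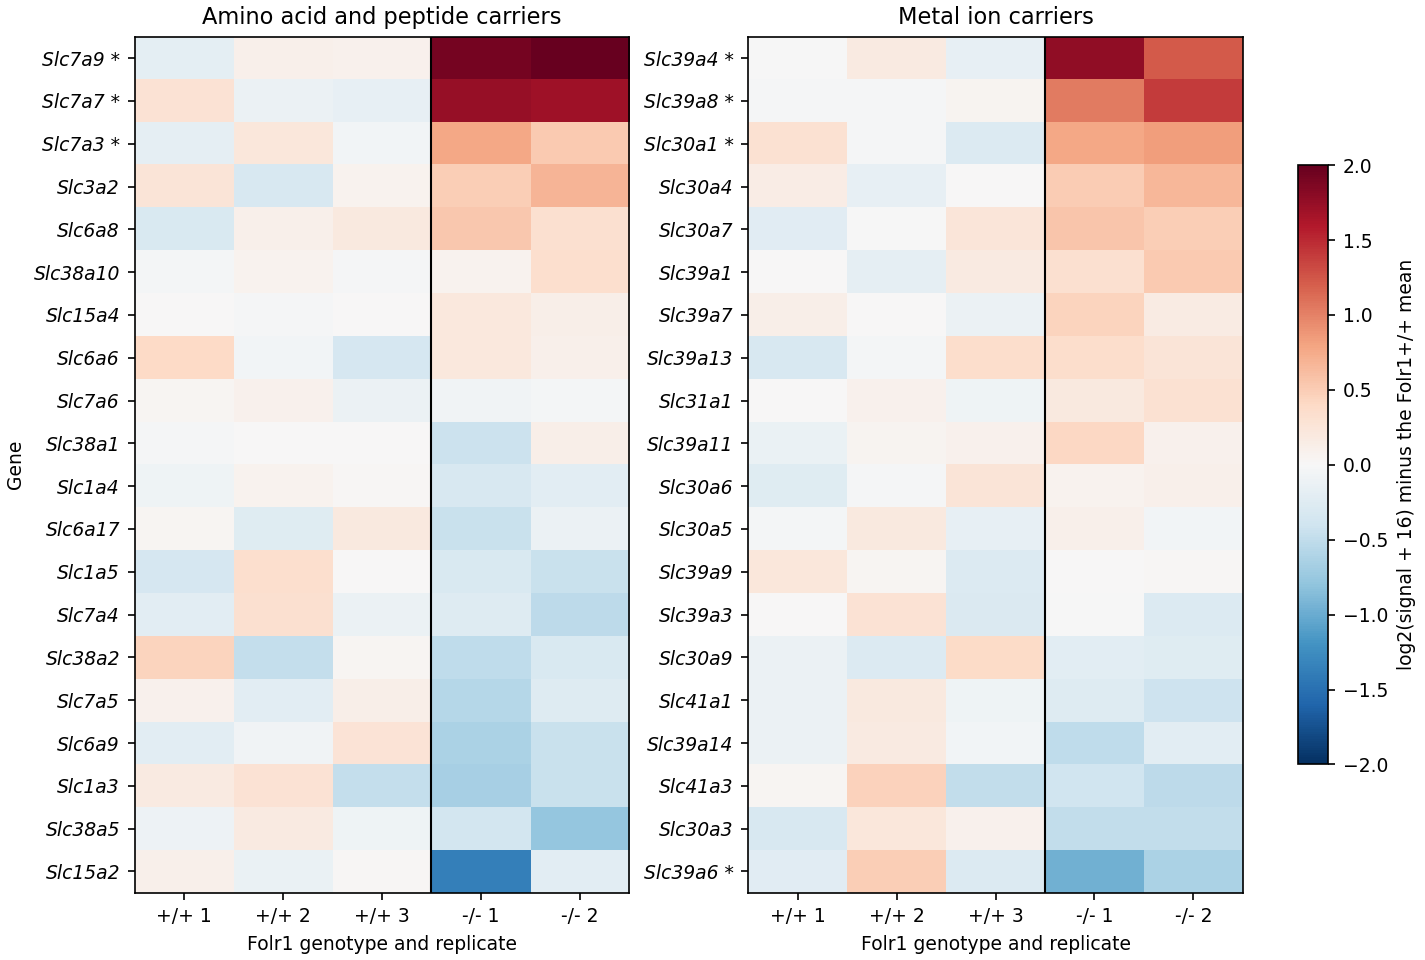
Log2(signal + 16) of each array minus the Folr1+/+ mean, for the 20 tested amino acid and peptide carriers (left) and the 20 tested metal ion carriers (right), with genes ordered by fold change and an asterisk on those past the threshold. Red is higher and blue lower than the Folr1+/+ mean, and the scale ends at -2 and 2. The Folr1-/- columns are reddest for Slc7a9 and Slc7a7 on the left and for Slc39a4 and Slc39a8 on the right.

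Among metal carriers, genes on both sides of zinc transport passed the threshold. Of 24 members 20 were tested, and 3 rose, 1 fell and 16 did not pass, where 15.0% of all tested genes were called. The median was 0.17, and the groups did not overlap in 12 of the 20, against 46.7% of all tested genes. With no filter on dim genes 2 metal carriers and 4 amino acid carriers were called. The proteins of the Slc39 family bring zinc and other metals into the cytosol, and those of the Slc30 family take zinc out of it. Slc39a4, the zinc importer of gut epithelium and visceral yolk sac, read 54.4, 64.5 and 47.2 in the wild type and 227 and 151 in the knockout (1.50 ± 0.21, adjusted p = 0.00063). Slc39a8, which imports zinc and manganese, had 445, 445 and 472 against 947 and 1217 (1.21 ± 0.15, adjusted p = 0.00035). The wild-type arrays were close together and both knockout arrays lay well above them. With the mean of its probe sets, of which the other read 0.660 to 12.9, the fold change of Slc39a8 was 0.64 and did not pass (adjusted p = 0.061). Slc30a1, the zinc exporter of the plasma membrane, rose from 49.2, 35.5 and 27.4 to 74.4 and 77.9 (0.81 ± 0.22, adjusted p = 0.027). The call of Slc30a1 was lost without wild-type replicate 3 (0.67, adjusted p = 0.10), knockout replicate 1 (0.84, 0.16) or knockout replicate 2 (0.78, 0.15) and with no filter (0.086), and its fold change was 0.47 with a pseudocount of 64.

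Slc39a6, a zinc importer of the plasma membrane, fell, from 1034, 1713 and 997 to 613 and 774 (-0.80 ± 0.22, adjusted p = 0.031). Wild-type replicate 2 stood above its group here, and without it the value was -0.55 (adjusted p = 0.052). The call was also lost without knockout replicate 1 (-0.63, adjusted p = 0.25) or 2 (-0.96, 0.065), with no filter (0.093) and with no intensity trend (0.053). Slc39a7, which releases zinc from the endoplasmic reticulum, had 1259, 1166 and 1068 against 1589.7 and 1307 (0.31 ± 0.15, adjusted p = 0.19). Slc30a4, which loads zinc into vesicles, just missed the threshold at 82.5, 63.7 and 73.2 against 111 and 125 (0.59 ± 0.18, adjusted p = 0.0501), and was named after its value was seen. Slc30a3, of the same family and also named after its values were seen, lay the other way without overlap. It had 46.8, 76.0 and 67.2 against 39.4 and 39.8 (-0.49 ± 0.21, adjusted p = 0.15). At an unadjusted limma p under 0.05, 5 metal carriers lay above 0 and 2 below it. Among the genes past the threshold, importers and an exporter of zinc thus both stood higher, and another importer was lower. The visceral endoderm markers were higher in the same arrays, and their part in the metal and amino acid results was not tested.

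Among carriers of organic acids, 3 of 11 members were tested, and 1 rose, where 8.19% of all tested genes rose. The 1 that rose was Slc16a1, which moves lactate, pyruvate and ketone bodies together with protons. Its signals were 1102, 641 and 633 against 1966 and 2034 (1.37 ± 0.22, adjusted p = 0.0014). Wild-type replicate 1 was the highest of its group and still well below both knockout arrays. Of 19 carriers of organic cations, anions and carnitine, 3 were tested (median 0.05). Among these 1 was higher, 0 lower and 2 not past the threshold, where 15.0% of all tested genes were called. At an unadjusted limma p under 0.05, 1 lay above 0 and 1 below it. Slc22a23, a member of that family with no settled substrate, rose from 96.2, 91.7 and 94.7 to 228 and 226 (1.14 ± 0.16, adjusted p = 0.00070), with little spread within either group. Slc22a17, of the same family and named after its values were seen, had 109.9, 188 and 118 against 65.7 and 90.9, without overlap, and did not pass (-0.69 ± 0.23, adjusted p = 0.065).

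Of 10 vitamin and cofactor carriers 5 were tested, with 1 higher, 1 lower and 3 not past the threshold (median 0.02). Over all tested genes, 8.19% were higher and 6.79% lower. Slc19a2, a thiamine transporter from the family of the reduced folate carrier, read 93.1, 117 and 107 in the wild type and 197 and 218 in the knockout (0.88 ± 0.17, adjusted p = 0.0055). Without knockout replicate 2 it did not pass (0.82, adjusted p = 0.059), nor with the mean of its probe sets (0.32, adjusted p = 0.18). Slc48a1, which carries heme out of endosomes and lysosomes and is known for its part in red cell turnover, had 59.2, 54.8 and 47.4 against 22.8 and 26.6 (-0.78 ± 0.20, adjusted p = 0.022). Both knockout signals lay under the filter level of 30.0, so the gene was tested because of its wild-type signals and could only be called lower. The primitive erythroid markers fell in the same arrays, and their part in this result was not tested. It did not pass without wild-type replicates 1 (-0.72, adjusted p = 0.057) or 3 (-0.84, 0.0504), without knockout replicates 1 (-0.71, 0.17) or 2 (-0.84, 0.084), or with no filter (0.069). The size of its change was -0.41 with a pseudocount of 64.

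The nucleotide sugar family, Slc66a1 and Slc66a2 are among the carriers of organelles. Other carriers of organelles, such as Slc48a1, Slc39a7, Slc30a4 and Slc18a1, are described with their own classes. Of these only Slc48a1 passed, and it was lower. Slc66a1, which exports cationic amino acids from lysosomes, read 34.6, 24.8 and 49.7 in the wild type and 132 and 117 in the knockout (1.45 ± 0.22, adjusted p = 0.0012), and 0.92 with a pseudocount of 64. Its substrates overlap with those of Slc7a9 and Slc7a7, although the family had been sorted under unsettled substrates together with the urea carriers. Slc66a2 had 52.8, 60.7 and 64.9 against 107 and 97.7 (0.65 ± 0.18, adjusted p = 0.033). The mean of its probe sets gave 0.24 (adjusted p = 0.42), and a pseudocount of 64 gave 0.43. Its call was also lost without wild-type replicate 1 (0.59, adjusted p = 0.072) or 3 (0.70, 0.068), without knockout replicate 1 (0.59, 0.22) or 2 (0.71, 0.11) and with no filter (0.082).

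Nucleotide sugar carriers supply the Golgi apparatus and the endoplasmic reticulum with the donors of glycosylation, and 14 of 19 members of this class were tested, with 2 higher, 0 lower and 12 not past the threshold (median 0.09), where 15.0% of all tested genes were called. At an unadjusted limma p under 0.05, 4 lay above 0 and 1 below it. Both calls were relatives of the family without a settled substrate. Slc35f5 had 85.4, 92.5 and 76.7 against 138 and 148 (0.66 ± 0.17, adjusted p = 0.025), and Slc35f6 had 54.2, 34.7 and 42.1 against 83.8 and 78.4 (0.72 ± 0.20, adjusted p = 0.036). Slc35f5 did not pass without wild-type replicate 3 (0.60, adjusted p = 0.092), knockout replicate 1 (0.70, 0.13) or knockout replicate 2 (0.62, 0.15). Slc35f6 did not pass without wild-type replicate 2 (0.60, adjusted p = 0.068) or 3 (0.70, 0.10) or knockout replicate 1 (0.68, 0.22) or 2 (0.76, 0.14), and its fold change was 0.43 with a pseudocount of 64. With the mean of its probe sets Slc35f6 did not pass either (0.47, adjusted p = 0.10). With no filter neither passed (adjusted p of 0.060 and 0.097). Slc35b1, which exchanges ATP for ADP across the membrane of the endoplasmic reticulum, had 593, 732 and 727 against 807 and 713 (0.15 ± 0.15, adjusted p = 0.55), with overlapping groups. Slc35e1, named after its values were seen, did not pass by its brightest probe set (0.07). Its further probe set read 29.6, 45.3 and 40.5 against 106 and 80.8, a difference of 1.01 without overlap.

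Of the carriers of fatty acids, choline and bile acids 5 of 15 were tested, and all 5 fold changes were above 0, with 1 past the threshold (median 0.37), where 47.9% of all tested genes were above 0 and 15.0% were called. Slc27a3, a fatty acid transport protein with acyl-CoA synthetase activity, had 86.2, 52.4 and 61.6 against 136 and 120.0 (0.82 ± 0.21, adjusted p = 0.021). Its call was lost without wild-type replicate 3 (0.78, adjusted p = 0.074), knockout replicate 1 (0.74, 0.18) or knockout replicate 2 (0.90, 0.082) and with no filter (0.068). Slc44a2, a choline transporter-like protein, had 877, 1085 and 1153 against 1239 and 1451 (0.37 ± 0.16, adjusted p = 0.14), without overlap of the groups. Its further and dimmer probe sets differed by 0.61 and -0.76, both without overlap.

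The Slc symbols also took in 3 genes whose products are not transporters, and their counts are included above. Slc9a3r1 encodes a PDZ scaffold that anchors carriers to the cytoskeleton under the apical membrane of epithelia. Its signals were 1303, 1237 and 1369 against 2457 and 2688 (0.97 ± 0.14, adjusted p = 0.00066), with higher Folr1-/- signals also in its 2 further probe sets (0.73 and 0.62, both without overlap). Slc9a3r2 and Slc4a1ap did not pass.

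**Figure D4:**
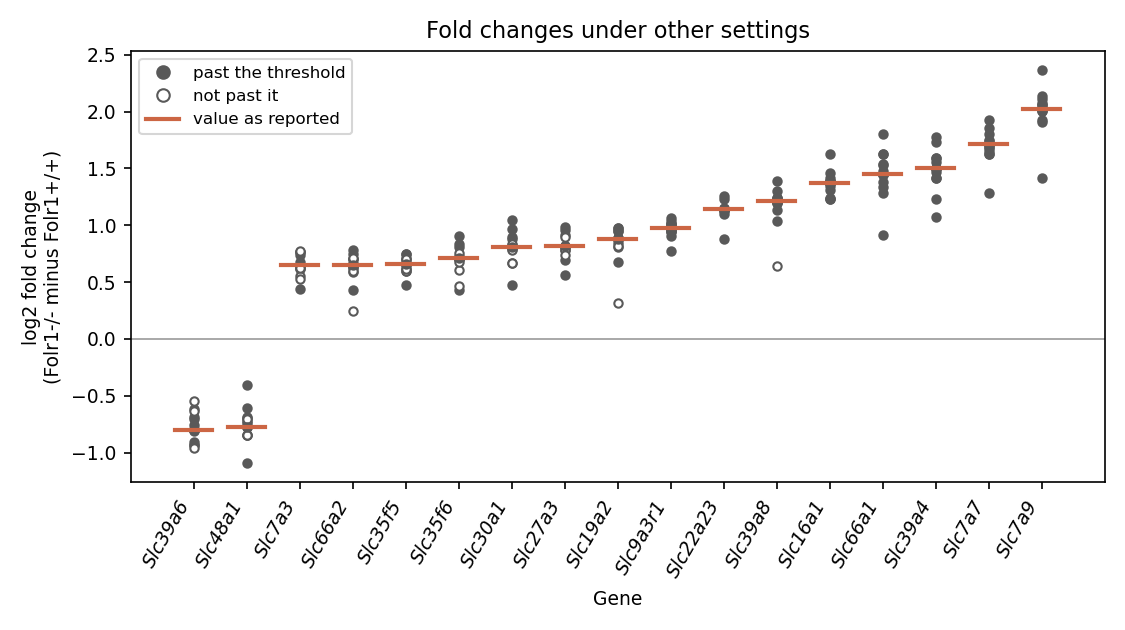
Log2 fold changes of the 17 called genes under each other setting in which they were tested (circles, filled where the gene passed), beside the value as reported (bar). Slc7a9, Slc7a7, Slc16a1, Slc39a4, Slc66a1, Slc22a23 and Slc9a3r1 have filled circles only, and no circle is on the other side of 0 from its bar.

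In 5 classes no tested member passed, against the 15.0% of all tested genes called. Carriers of sodium, potassium, calcium, chloride, bicarbonate and protons had 0 calls among 10 tested of 32 (median -0.06), where Slc4a3 had the smallest unadjusted p and was the only 1 of the 10 under 0.05. Slc12a2, the sodium-potassium-chloride cotransporter, had 622, 725 and 651 against 547 and 662 (-0.14 ± 0.15, adjusted p = 0.59). The chloride-bicarbonate exchangers Slc4a3 and Slc4a2 differed in sign, with 63.8, 42.2 and 54.6 against 37.2 and 27.2 for the former (-0.52 ± 0.22, adjusted p = 0.13) and 156, 120.4 and 105 against 207 and 145 for the latter (0.42 ± 0.21, adjusted p = 0.19). Phosphate carriers had 2 tested members, the sodium-coupled importers Slc20a1 (0.26 ± 0.15, adjusted p = 0.29; -0.18 with the mean of its probe sets) and Slc20a2 (0.30 ± 0.17, adjusted p = 0.25), neither with an unadjusted p under 0.05. Their signals were 829, 693 and 729.8 against 816 and 985, and 677, 509 and 675 against 816 and 709.8.

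Nucleoside carriers gave 0 calls among 4 tested (median 0.02), with 0 at an unadjusted p under 0.05, and their groups overlapped in all 4. The equilibrative nucleoside transporters Slc29a3 and Slc29a1 had 53.4, 52.8 and 69.4 against 80.9 and 61.7 (0.23 ± 0.20) and 41.5, 41.7 and 33.7 against 42.4 and 21.3 (-0.23 ± 0.23; 0.09 without knockout replicate 2). Sugar, inositol and sugar phosphate carriers gave 0 calls among 4 tested of 14 (0 at an unadjusted p under 0.05, median 0.04), with the hexose carriers of Slc2a left out of these counts. Slc5a2, a sodium-glucose cotransporter of the kidney, had 40.3, 36.8 and 41.7 against 31.5 and 24.6 (-0.34 ± 0.20). Slc50a1, a sugar efflux carrier, had 57.8, 28.0 and 67.2 against 66.0 and 71.8 (0.39 ± 0.26), where wild-type replicate 2 was far below the rest. Slc37a3, of the sugar phosphate family, had 154, 153 and 148 against 145 and 152 (-0.03 ± 0.16; 0.07 with median centring). The groups overlapped for Slc50a1 and Slc37a3. Only 1 of 8 neurotransmitter and amine carriers was tested, the vesicular monoamine transporter Slc18a1, with 36.0, 25.7 and 50.3 against 48.0 and 37.6 (0.16 ± 0.24, adjusted p = 0.69; unadjusted p = 0.51). A p above the threshold does not show that the levels were equal.

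The 117 members under the filter had a level, averaged on the log2(signal + 16) scale, below a signal of 30.0. Just inside it were Slc35c1, Slc29a4 and Slc41a3, at 30.4, 31.0 and 31.9, and just outside it Slc34a2, Slc4a4 and Slc7a8, at 29.8, 29.7 and 29.2. When all 12393 genes were tested, 6.03% were called, and of the 117 members 4 rose and 1 fell (4.27%). The 5 had adjusted p-values of 0.017 to 0.048 in that fit, and were named after their values were seen. Slc13a3, a sodium-coupled dicarboxylate importer, had 9.72, 17.7 and 18.3 against 44.1 and 42.5. Its 3 further probe sets differed by 0.70, 0.34 and -0.46, the first and the last without overlap between the groups. The ascorbate transporter relative Slc23a3 had 3.82, 8.37 and 16.4 against 40.9 and 34.0. Slc1a6, a glutamate transporter of neurons, rose from 3.20, 4.16 and 3.20 to 21.8 and 15.9. Slc47a1, which exports organic cations together with proton exchange, fell from 24.8, 19.2 and 24.7 to 6.18 and 4.40. Detection calls were not analysed here, so whether such low signals exceed background is not known. Of the 97 brighter members 9 were called in that fit, all higher.

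The Y-linked gene Eif2s3y read 300, 345 and 372 in the wild type and 104 and 3.13 in the knockout. Kdm5d, also Y-linked, read 120, 89.5 and 107 against 25.2 and 0.796. Any effect of embryo sex, also on autosomal genes, therefore cannot be told apart from that of genotype. Because Xist and Y-linked genes differed between the groups, the members on the X chromosome were set apart. There were 6, of which 5 were tested, and in each of the 5 the knockout arrays lay outside the wild-type range, as they did in 52.0% of all tested X-linked genes and 46.7% of all tested genes. Slc7a3 was the only one past the threshold. Of the other 4, the creatine transporter Slc6a8 (149, 202 and 217 against 279 and 238), the UDP-galactose transporter Slc35a2 (158, 192 and 200.0 against 248 and 243) and Slc10a3 (89.7, 61.0 and 72.0 against 103 and 98.9) had fold changes of 0.43, 0.40 and 0.39. The glutamine carrier Slc38a5 went the other way, with 47.2, 60.9 and 48.1 against 36.4 and 23.8 (-0.57). Of all tested X-linked genes 21.0% were called. With the genes of both sex chromosomes removed before the fit, an alternative added after the data were seen, 14 members were higher and 2 lower among 92 tested. The part of the X chromosome in the fold changes of these genes was not tested.

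Other genes of membrane transport, on a separate list, were read from the same fit. Of 59 genes for Slco organic anion carriers, aquaporins, ATP-binding cassette transporters and sodium pump subunits, 24 were tested, 5 rose, 0 fell and 19 did not pass by limma (20.8% called, against 15.0%), with a median of 0.09. At an unadjusted p under 0.05, 2 of the 24 lay below 0. Aqp8 and Abcd4 were dimmer than the filter level of 30.0 in every wild-type array and were tested because of their knockout signals, so they could only be called higher, and the count and share are no support for a direction. The sodium pump drives the sodium-coupled carriers, and its subunit gene Atp1b1 read 556, 532 and 594 in the wild type and 1465 and 1199 in the knockout (1.22 ± 0.15, adjusted p = 0.00028). The subunit genes Atp1b3 and Atp1b2, named after their values were seen, did not pass, with overlapping groups. Atp1b3 had 683, 643 and 580 against 639 and 606 (-0.03 ± 0.15, adjusted p = 0.92), and Atp1b2 was at 0.17 ± 0.28 (adjusted p = 0.73). No Atp1a subunit gene was among the 59. The water channel genes Aqp8 and Aqp3 had 20.4, 10.1 and 22.0 against 275 and 143 (2.70 ± 0.27) and 75.2, 52.0 and 50.2 against 131 and 178 (1.18 ± 0.21). Abcd4, which works in lysosomal cobalamin export, had 19.3, 17.6 and 24.2 against 114 and 64.9 (1.50 ± 0.24, adjusted p = 0.0014). The fifth, the efflux pump gene Abcg2, rose by 0.65 ± 0.15 and was named after its value was seen. Without knockout replicate 2 the count was 3, Aqp3 did not pass (0.98, adjusted p = 0.056; 0.40 and 0.092 with the mean of its probe sets), and the visceral endoderm markers were higher in the same arrays.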

How the data were processed

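Total RNA of 5 samples of whole embryos was amplified in 2 rounds and hybridised to 1 Affymetrix Mouse Genome 430A array each. The ratio of the 3′ to the 5′ beta-actin control probe set was 21.1, 39.5 and 29.1 in the wild type and 30.5 and 22.8 in the knockout. How far such a 3′ bias lowered the signals of other probe sets was not tested. The deposited intensity values are MAS5 signals per probe set, per the submitters' processing notes, on a linear scale, and the arrays' 2% trimmed means lie between 150.06 and 150.07. Its version is not given in the sources. Precision is limited by there being 5 arrays, which leave 3 residual degrees of freedom.

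Of 22690 probe sets, 20380 carried 1 symbol, 691 several, 1555 were not listed in the annotation table, and 64 were controls. For each of 12393 genes the brightest probe set was kept, by mean log2(signal + 16). Genes under the 40th percentile were left out, and 7436 were tested with limma 3.58.1 in R 4.3.3 (lmFit, eBayes with trend), and p-values were adjusted by Benjamini-Hochberg over all of them. Fold changes on this scale understate those of dim genes. Levels of different probe sets were not compared. The code was tested on simulated arrays. Members, lists and tests were chosen with earlier results of these data known. Every member past the threshold is named, and per class the member with the highest mean signal or, where none passed, up to 2 with the smallest unadjusted p. Alternatives were other pseudocounts, filters, scalings, probe set rules and variance models, the replicate number as a block, and leaving out each array.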

Additional observations from a re-analysis of the deposited data

How the results depend on the processing

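Of the 17 called genes, 7 passed wherever they were tested, and no named gene changed sign with a call. Leaving out 1 array in turn gave 369 to 1007 called genes in all, 8 to 15 higher and 0 to 2 lower solute carriers with a median of 0.067 to 0.14, 2 to 4 called amino acid carriers, 2 to 5 called metal carriers and 3 to 5 other membrane transport genes. The Folr1+/+ leave-outs use 2 arrays a group, and the lone array left by a Folr1-/- leave-out is assumed to vary like the other group. With no filter, 1 member fell and 2 metal carriers were called. With the filter at the 60th percentile, which tests 47 members, 7 rose and 1 fell, and 1 amino acid carrier, 2 metal carriers and 2 other transport genes were called. Lower members numbered 1 with no intensity trend and 4 with array weights, where 5 amino acid carriers were called. The median of the members, whose spread between Folr1+/+ arrays was 0.012 (SD), was 0.12 and 0.081 with pseudocounts of 1 and 64, 0.018 with no filter, 0.16 with the 60th percentile, 0.11 with quantile normalization, 0.19 with median centring (which moves the median of all genes by 0.09), 0.068 with the mean of probe sets and 0.14 with the replicate block. Where 2 arrays share a replicate number, their deviations from the group mean correlated at 0.019 and -0.056 over genes. The deviations of the 2 Folr1-/- arrays mirror each other, so these values cannot decide whether the numbers pair the samples. The replicate block gave 10 higher and 3 lower members and 899 called genes in all, and under it 12 of the 17 calls were kept, without Slc7a3, Slc30a1, Slc35f5, Slc35f6 and Slc66a2. The cause of these differences was not tested. Signal over background limits the dim members, of which 117 were not tested.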
